A study of Mus musculus with 4 samples.

Results

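Bile acid and organic anion transporters are the membrane proteins by which hepatocytes take bile acids, bilirubin and drugs from the blood and pass them into bile or back to the blood. The 10 genes described here were chosen by their gene symbols and not by their measured values: Slc10a1, Slco1a1, Slco1a4, Slco1b2 and Slco2b1 for uptake at the sinusoidal membrane, Abcb11, Abcb4 and Abcc2 for export at the canalicular membrane, and Abcc3 and Abcc4 for efflux at the basolateral membrane. They were represented by 18 of the 45101 probe sets of an Affymetrix expression array, and were 10 of 18193 genes with a probe set of their own. All 10 passed a filter on low signals, which 11513 genes passed, and 9 of them, all but Abcc4, were among the 3838 most abundant of these.

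Livers came from 2-month-old C57BL/6J mice that were exposed at 2 stages to ethylbenzene, an aromatic solvent, or to phosphate-buffered saline (PBS), by intraperitoneal injection. The first stage was 2 injections 24 h apart. The second stage followed 7 days later, and livers were taken 5 h after it. Each ethylbenzene dose was 7 mmol per kg. Group E+E received ethylbenzene at both stages, P+E received PBS and then ethylbenzene, E+P received ethylbenzene and then PBS, and P+P received PBS at both. RNA was pooled from 5 mice each for E+E and P+E and from 3 mice each for E+P and P+P, and each pool was measured on 1 array. There were therefore no replicates, the spread between animals was unknown and no difference was tested, and pool size differed along with the second exposure.

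Uptake from portal blood is shared by the sodium-dependent taurocholate cotransporter, encoded by Slc10a1, and the sodium-independent organic anion transporting polypeptides, encoded by the Slco genes. Canalicular export by the bile salt export pump, encoded by Abcb11, drives bile flow, and the basolateral pumps encoded by Abcc3 and Abcc4 offer an alternative route out of the cell that is known for its use in cholestasis. The nuclear receptor FXR, encoded by Nr1h4, senses bile acids and is known to activate Abcb11, while hepatocyte factors such as HNF4A maintain the uptake genes.

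After the scaling of the authors the arrays were alike in trimmed mean signal, but not in median signal or in their control probe sets. The deposited median was 152 on E+E and 153 on P+E, against 134 on E+P and 130 on P+P. The geometric mean of the probe sets for 18S ribosomal RNA was between 122 and 182 on the E+E, P+E and E+P arrays, against 1872 on P+P. That of the Actb controls was between 22081 and 30540, against 8928 on P+P. For the hybridisation spike controls it was 15057 on E+E and 11971 on P+E, against 10252 on E+P and 9868 on P+P. On these spikes P+P was near E+P, and both arrays after ethylbenzene were higher. The part of this offset in the transporter ratios was not tested. The control signal near the 3′ end of a transcript divided by that near the 5′ end is a sign of RNA integrity. For Pcx this quotient was 6.15 on P+E, against 23.5 on P+P, and 12.0 on E+E, against 7.21 on E+P. That of Actb was between 3.48 and 3.84 on E+E, P+E and E+P, against 4.55 on P+P. The quotient of Gapdh was alike on all arrays, from 0.91 on E+P to 1.06 on P+P. The part of RNA quality in the transporter ratios was not tested. All 8 measured hepatocyte markers of a list of 10 passed the filter and none was at least 2-fold apart in both second-exposure ratios. Their summed signal was 1025550 on P+E, against 826953 on P+P, and 1089330 on E+E, against 877254 on E+P. Their median log2 ratios were 0.02 and -0.05. The 6 measured pancreatic acinar markers of a list of 8 had a summed signal of 5780 on P+E, against 588 on P+P, and of 5719 on E+E, against 533 on E+P, and all 6 were higher by 2-fold or more in both. For the 5 measured neutrophil markers of a list of 7 the sums were 3890 on P+E, against 665 on P+P, and 6324 on E+E, against 626 on E+P, with 2 at least 2-fold higher in both. For the 6 measured cholangiocyte markers of a list of 9 they were 1151 on P+E, against 1049 on P+P. On E+E the cholangiocyte sum was 1632, against 877 on E+P, and 1 marker rose 2-fold or more in each pair. The 9 Kupffer cell markers, all measured, had sums of 10818 on P+E, against 12551 on P+P, and of 12822 on E+E, against 19626 on E+P, and their median log2 ratio was -0.57 for E+E against E+P and 0.62 for E+P against P+P. The 6 sinusoidal endothelial markers, all measured, had sums of 9099 on P+E, against 11457 on P+P. On E+E their sum was 8688, against 11804 on E+P, and their median log2 ratios were -0.42 and -0.63. Yet 1 of these endothelial markers rose 2-fold or more in each pair, while 0 fell by as much in each. No marker of these lists was listed at 0. The part of other cells in the ratios of the transporter genes was not tested, and in bulk tissue fewer cells of a type and less RNA per cell cannot be told apart.

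The second exposure was described by 2 ratios, P+E against P+P for livers with PBS at the first stage and E+E against E+P for livers with ethylbenzene at the first stage. Signals below are intensities as deposited, and log2 ratios are differences of quantile-normalized log2 signals with a pseudocount of 43.2. At 5 h after ethylbenzene, 4 of the 5 uptake genes were lower in both ratios, by 1.12-fold to 1.75-fold, while Slco2b1 was higher. Abcb11 was higher in both, by 1.24-fold and 1.36-fold, and Abcb4 was lower in both. In all, 5 of the 10 genes were below 0 in both ratios, as were 37.5% of all genes past the filter, and 4 were above 0 in both, as were 27.7%. Among the 3838 most abundant genes these shares were 45.8% and 28.4%. The differences of the transporter genes were small: none of them was lower by 2-fold in either ratio, and only Abcc4 was at least 2-fold higher, in E+E against E+P alone. That call was lost with the median signal as pseudocount, at 0.86, and with a 75th percentile filter, which Abcc4 did not pass, and with the mean over probe sets Slco2b1 reached 1.0 in P+E against P+P. For comparison, 6.54% of all genes past the filter were higher and 6.7% lower by this rule in P+E against P+P. In E+E against E+P 6.91% were higher and 6.74% lower. Among the 3838 most abundant genes, which held all members but Abcc4, 5.39% were higher and 2.97% lower in P+E against P+P. In E+E against E+P these shares were 5.86% and 3.36%.

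**Figure D1:**
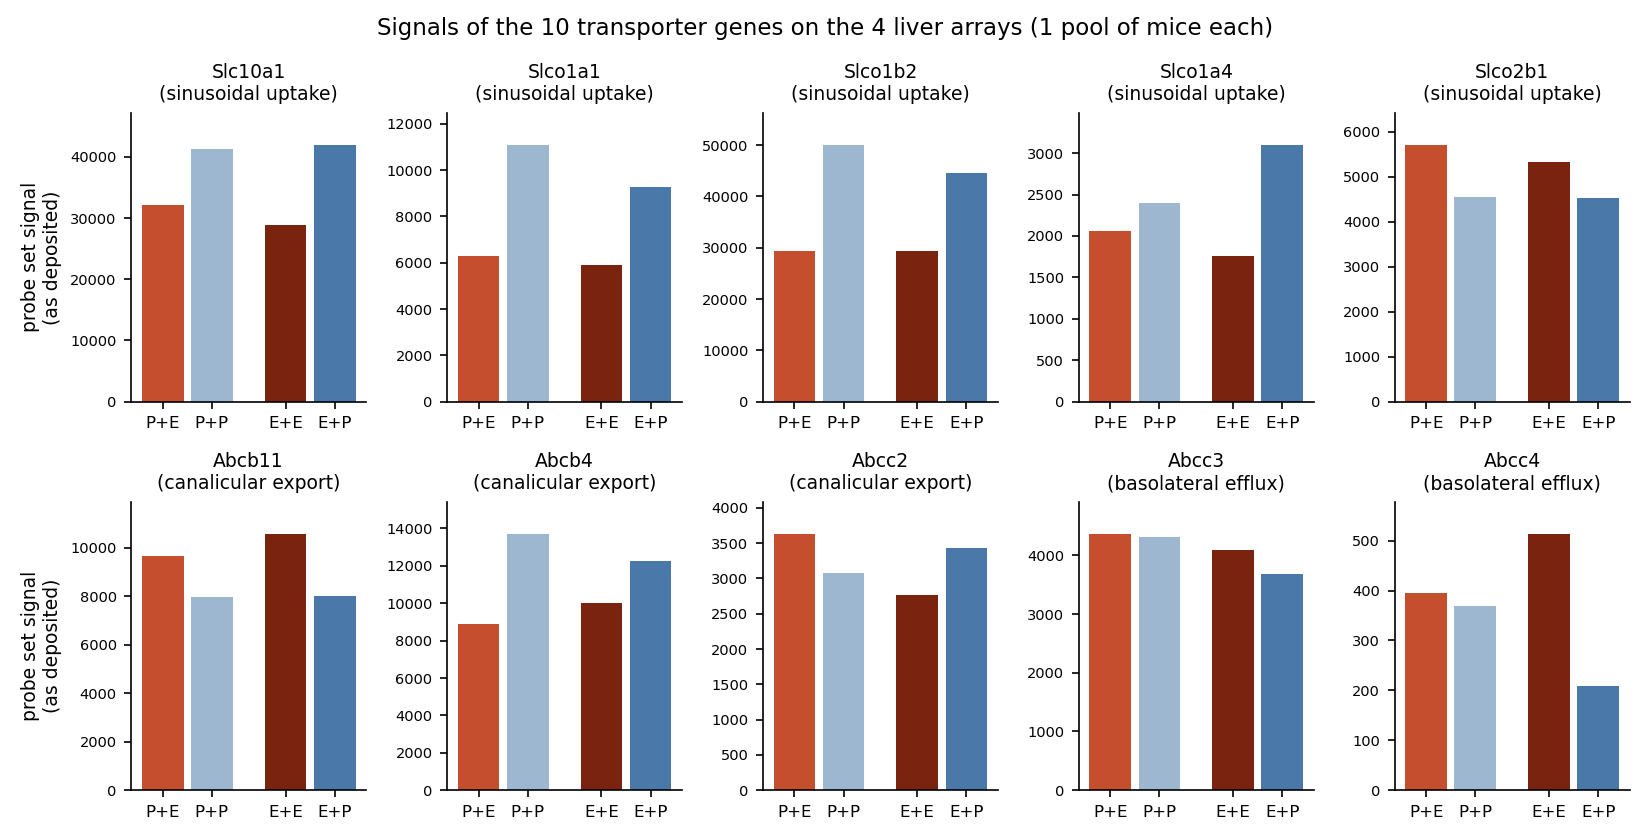
Deposited probe set signals (vertical axes, linear and starting at 0) of the 10 transporter genes on the 4 arrays, with each array after ethylbenzene left of its comparison array after PBS. Each bar is 1 array of pooled RNA, so there is no error bar. The bars of Slc10a1, Slco1a1, Slco1b2, Slco1a4 and Abcb4 are lower on P+E and E+E than on P+P and E+P, and those of Abcb11, Slco2b1 and Abcc4 are higher.

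For 8 of the 10 genes both arrays after ethylbenzene lay on the same side of both arrays after PBS. The 5 that lay below were Slc10a1, Slco1a1, Slco1a4, Slco1b2 and Abcb4, where 31.1% of all genes past the filter did so and 40.6% of the 3838 most abundant. The 3 that lay above were Abcb11, Slco2b1 and Abcc4, against 22.3% of all genes and 24.9% of the most abundant. In either direction the arrays were apart for 53.4% of all genes and 65.5% of the most abundant, so that a separation of this kind was common on these arrays. The median log2 ratio of the 10 genes was -0.07 for P+E against P+P and -0.28 for E+E against E+P, and that of all genes past the filter was -0.07 and -0.05.

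Because the control probe sets of P+P stood apart, P+E was also set against E+P, a comparison added after the data were seen in which the first exposure differs too. The log2 ratios were -0.34 for Slc10a1, -0.52 for Slco1a1, -0.59 for Slco1b2, -0.54 for Slco1a4 and -0.45 for Abcb4, and 0.31 for Abcb11, 0.35 for Slco2b1 and 0.71 for Abcc4. The signs of these 8 ratios were fixed by the separation of the arrays that chose the genes, so only the sizes were measured. For Slco1a4 and Abcc4 the ratio was larger in size than that to P+P, and for Abcb11 both ratios were 0.31.

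Slco1a1, whose product takes up sulfated steroids and bile acids, had a signal of 6303 on P+E, against 11085 on P+P, and of 5896 on E+E, against 9283 on E+P. It was thus 1.71-fold lower in the first ratio and 1.54-fold lower in the second. A second probe set of the gene gave 6513 on P+E, against 10188 on P+P, and 6206 on E+E, against 8958 on E+P, in the same direction with log2 ratios of -0.60 and -0.50.

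Slco1b2, which encodes the main rodent transporter for unconjugated bile acids and many drugs, had a signal of 29388 on P+E, against 49999 on P+P, and of 29383 on E+E, against 44615 on E+P. The log2 ratios were -0.81 and -0.62, or 1.75-fold and 1.54-fold lower. With the probe sets used, Slco1a1 and Slco1b2 were the only members at least 1.5-fold lower in both ratios, a size chosen after the data were seen. It was met by 6.58% of all genes past the filter and 6.25% of the most abundant. In E+E against E+P the second probe set of Slco1a1, at -0.50, and the mean over its probe sets, at -0.56, fell short of this size. The other probe sets of Slco1b2 differed in part. One with a signal of 14113 on P+E, against 25088 on P+P, and of 16106 on E+E, against 27059 on E+P, had log2 ratios of -0.79 and -0.74, and another bright one had -0.14 and -0.59. A dim probe set, at 148 on P+E, against 406 on P+P, and at 513 on E+E, against 43.8 on E+P, had log2 ratios of -1.35 and 2.64, and with the mean over all 5 probe sets the second ratio of the gene became 0.0025.

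Slc10a1, the sodium-dependent bile acid cotransporter gene, had a signal of 32142 on P+E, against 41332 on P+P, and of 28840 on E+E, against 41915 on E+P. Both arrays after ethylbenzene were below both after PBS, by 1.28-fold and 1.46-fold. Its second probe set had log2 ratios of -0.19 and -0.54.

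Slco1a4, whose product also transports cardiac glycosides, had a signal of 2066 on P+E, against 2403 on P+P, and of 1757 on E+E, against 3098 on E+P. The first of these is a 1.12-fold and the second a 1.70-fold lower signal. Set against E+P in place of P+P, the P+E array had a log2 ratio of -0.54 for Slco1a4, where the ratio to P+P was -0.16.

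Slco2b1 ran the other way from the other uptake genes. This organic anion transporter, which is also found outside the liver, had a signal of 5702 on P+E, against 4558 on P+P, and of 5322 on E+E, against 4526 on E+P. The log2 ratios were 0.37 and 0.27, and 0.58 and 0.11 on a second bright probe set. Another, dim probe set, at 251 on P+E, against 21.4 on P+P, and at 249 on E+E, against 45.1 on E+P, had log2 ratios of 2.06 and 1.64 with a mean signal below the filter level.

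**Figure D2:**
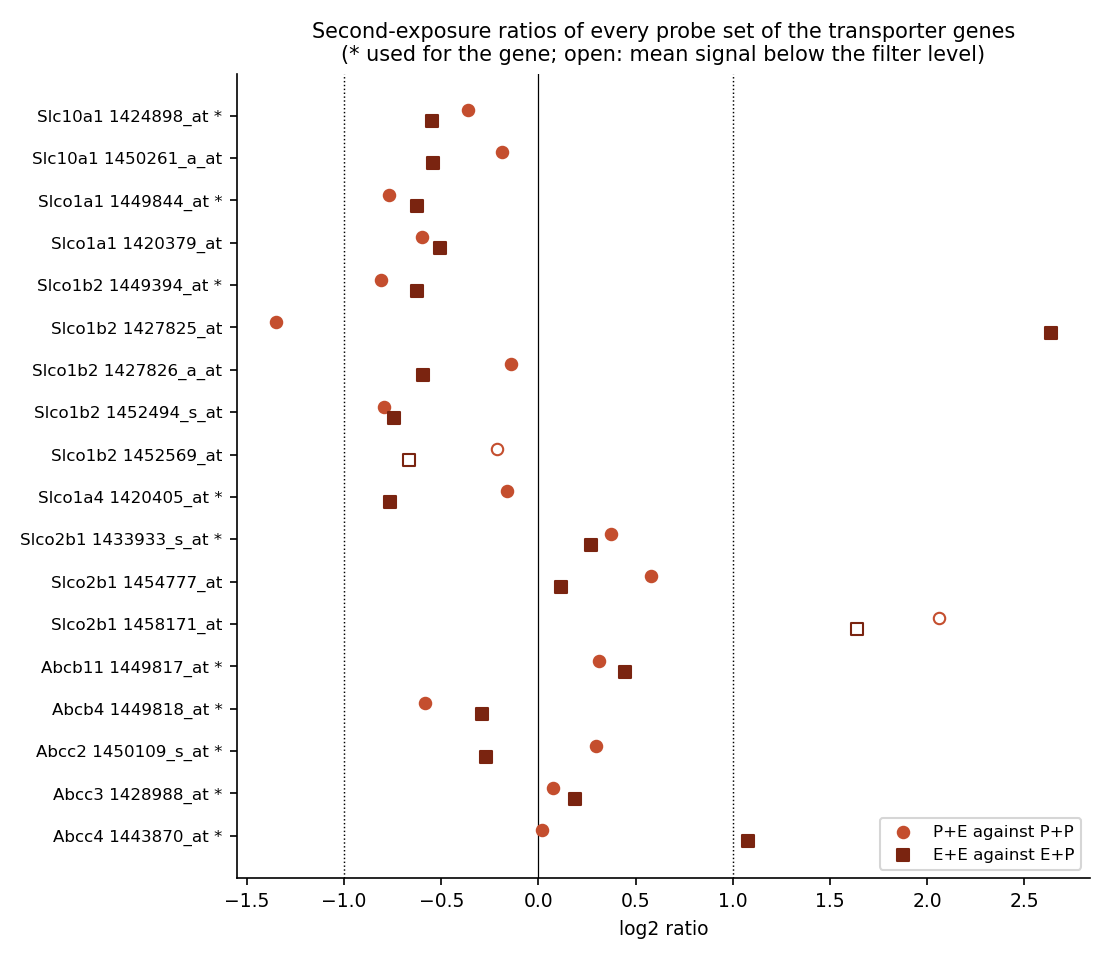
Log2 ratios (horizontal axis) of all 18 probe sets of the transporter genes for P+E against P+P (circles) and E+E against E+P (squares), with open symbols for probe sets whose mean lies below the filter level and dotted lines at 2-fold. Both ratios are below 0 for both probe sets of Slc10a1 and of Slco1a1, while a dim probe set of Slco1b2 lies at -1.35 and 2.64.

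The canalicular genes did not share a direction. Abcb11, the bile salt export pump gene, had a signal of 9688 on P+E, against 7965 on P+P, and of 10594 on E+E, against 7997 on E+P. The arrays after PBS were close to each other and both arrays after ethylbenzene were above them, with log2 ratios of 0.31 and 0.45. Abcb4 encodes the flippase that supplies phosphatidylcholine to bile and so protects the bile ducts from bile salts. Its signal was 8892 on P+E, against 13726 on P+P, and 9992 on E+E, against 12235 on E+P, with log2 ratios of -0.58 and -0.29. Abcc2, which exports bilirubin glucuronides and glutathione conjugates, had a signal of 3636 on P+E, against 3071 on P+P, and of 2766 on E+E, against 3431 on E+P. Its log2 ratios of 0.29 and -0.27 had opposite signs. Each of these 3 genes had 1 probe set, and that of Abcc2 is of a type that can match several transcripts.

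Of the basolateral efflux genes, Abcc3, whose product returns glucuronides and some bile acids to the blood, had a signal of 4371 on P+E, against 4315 on P+P, and of 4099 on E+E, against 3684 on E+P. The log2 ratios were 0.07 and 0.19, and the first became -0.04 at a common 75th percentile. Abcc4, whose product exports bile acids together with glutathione as well as cyclic nucleotides, had a signal of 394 on P+E, against 370 on P+P, and of 514 on E+E, against 209 on E+P. This is 1.01-fold higher in the first ratio and 2.12-fold higher in the second. Of the 4 arrays E+P had the lowest signal and E+E the highest. With E+P left out, the log2 ratio of E+E to P+P was 0.38, and with P+P left out that of P+E to E+P was 0.71. Abcc4 had 1 probe set, as had Abcc3.

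**Figure D3:**
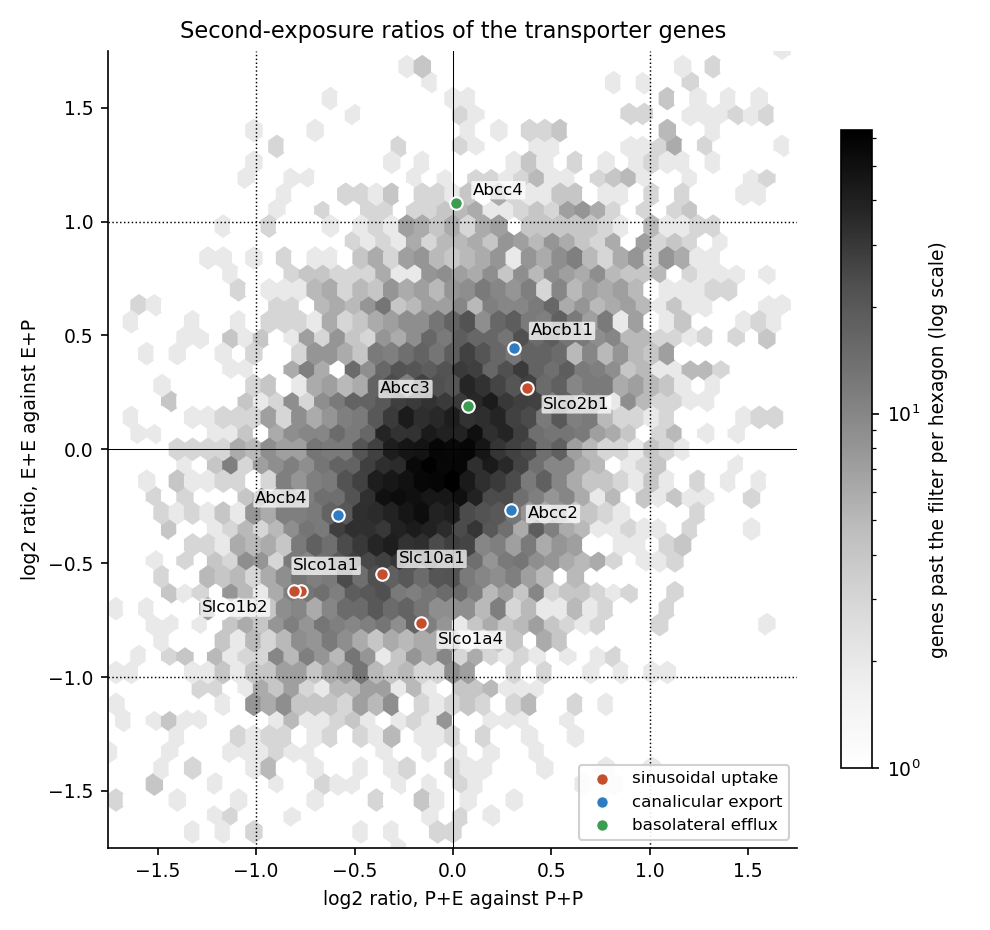
Log2 ratios of the transporter genes for P+E against P+P (horizontal axis) and E+E against E+P (vertical axis), coloured by role, over a density of the genes past the filter in grey, with dotted lines at 2-fold. Genes outside the axes are not drawn. Slco1a1 and Slco1b2 lie close together at the lower left, and Abcc4 alone lies beyond a 2-fold line, at 1.08 on the vertical axis.

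Sequence directly before the annotated starts is shown for Abcb11, which was higher in both ratios, and for Slco1b2, Slco1a1 and Slc10a1, which were lower in both. The sequences are from RefSeq on build GRCm38.p6, whose promoter table held 9 of the 10 genes (not Abcc3). Each run gives the 150 bases before the start, 5′ to 3′ on the strand of the gene. It is chr2:69342617-69342766 on the minus strand for Abcb11, chr6:141629368-141629517 on the plus strand for Slco1b2, chr6:141946963-141947112 on the minus strand for Slco1a1 and chr12:80968706-80968855 on the minus strand for Slc10a1, whose outermost of 2 listed starts was used. Capitals mark matches on either strand to 2 motifs: AGGNCA and TGACCT with any 1 base between them, an inverted repeat of the kind FXR binds, and AGGTCA, the single nuclear receptor site, which the right arm of the inverted repeat also contains.
Abcb11: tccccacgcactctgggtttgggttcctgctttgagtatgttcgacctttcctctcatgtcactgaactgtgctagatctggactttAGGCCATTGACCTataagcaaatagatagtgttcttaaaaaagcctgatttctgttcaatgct
Slco1b2: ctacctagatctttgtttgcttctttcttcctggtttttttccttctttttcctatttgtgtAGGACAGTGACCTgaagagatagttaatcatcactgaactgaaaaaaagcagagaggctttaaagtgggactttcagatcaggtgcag
Slco1a1: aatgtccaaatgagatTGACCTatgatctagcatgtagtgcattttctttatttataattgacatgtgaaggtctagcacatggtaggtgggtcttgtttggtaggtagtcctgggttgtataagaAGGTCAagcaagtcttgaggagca
Slc10a1: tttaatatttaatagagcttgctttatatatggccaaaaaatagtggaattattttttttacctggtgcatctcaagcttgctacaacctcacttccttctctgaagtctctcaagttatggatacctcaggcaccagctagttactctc
The inverted repeat was found in Abcb11, from 63 to 51 bases before the start, and in Slco1b2, from 88 to 76 bases before it. It occurred in 0.0335% (11) of 32851 promoter windows of 250 bases. AGGTCA occurred in 14% of all windows and in 5 of the 13 windows of the transporter genes, those of Abcb11, Abcc2, Slc10a1, Slco1a1 and Slco1b2. The 150 bases shown for Slc10a1 held neither motif, and its match to AGGTCA lay before the other of its 2 listed starts. The motifs were chosen with these sequences in view, the matches describe letters only, and both a gene with higher and a gene with lower signals after ethylbenzene carried the inverted repeat.

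The first exposure was described by the ratios of E+P to P+P, after PBS at the second stage, and of E+E to P+E, after ethylbenzene at the second stage. Neither ratio reached 2-fold for any transporter gene. By the same rule 2.58% of all genes past the filter were higher and 2.73% lower in E+P against P+P, and 3.98% were higher and 3.99% lower in E+E against P+E. Among the 3838 most abundant genes, which held 9 of the members, these shares were 0.469% and 0.234%, and 0.339% and 0.234%. Abcc4 was at -0.70 on E+P against P+P, and at 0.37 on E+E against P+E. No other member reached 1.5-fold in either ratio with the probe set used. In E+P against P+P 7.78% of all genes were higher and 8.77% lower by that size, and in E+E against P+E 10.9% were higher and 10.5% lower. Among the most abundant genes the shares were smaller, at 2.14% and 2.03%, and at 1.95% and 2.19%. Slco1a4 was at 0.38 and -0.23 and Abcc2 at 0.15 and -0.41, so that neither kept its sign. Slco1a1 (-0.25 and -0.10), Slco1b2 (-0.22 and -0.03), Abcc3 (-0.21 and -0.10) and Slc10a1 (-0.03 and -0.21) were below 0 in both ratios, as were 25.5% of all genes, and no member was above 0 in both, as were 23.5%. For Slc10a1 the first of these was 0.02 on the deposited scale, and its second probe set was at 0.13. The brighter probe sets of Slco1b2 also disagreed here, at -0.22, 0.11 and 0.67 for E+P against P+P. For E+E against P+E, 3 of its 4 probe sets past the filter level were above 0, the highest at 1.61, and the mean over all 5 was 0.63, of the opposite sign and past 1.5-fold. Abcb11 was at -0.00057 on E+P against P+P and at 0.14 on E+E against P+E. The medians of the 10 genes were -0.08 and -0.09, and those of all genes -0.01 and -0.0015.

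Whether the first exposure went with another response to the second was described by the difference of the second-exposure log2 ratios, E+E against E+P minus P+E against P+P, which uses all 4 arrays and holds the error of each. It was 1.06 for Abcc4, -0.60 for Slco1a4 and -0.56 for Abcc2. The other 7 genes lay between -0.19, for Slc10a1, and 0.29, for Abcb4, with the probe sets used. With the mean over probe sets the difference for Slco1b2 was 0.66, against 0.19 with the probe set used, and that for Slco2b1 was -0.46 without the probe set that can match several transcripts, against -0.11 with it. A difference of at least 1 was reached by 8.07% of all genes past the filter but by 0.834% of the 3838 most abundant, and Abcc4 was not one of these. No member had a difference of -1 or less, which 7.03% of all genes and 0.625% of the most abundant had.

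Other efflux and uptake genes, not all of them for bile acids or organic anions, included several with larger ratios than the 10 genes. Among 11 further efflux and flippase genes past the filter, of 15 listed, the median log2 ratios were -0.40 and -0.41. Both arrays after ethylbenzene were below both after PBS for 7 of them (31.1% of all genes past the filter, 40.6% of the most abundant). Both were above for 2 of them (22.3% of all genes, 24.9% of the most abundant). Abca1, which exports cholesterol to apolipoprotein A-I, was the only one at least 2-fold higher in both, with a signal of 12720 on P+E, against 5534 on P+P, and of 14301 on E+E, against 5714 on E+P. Abcg5 and Abcg8, whose products form the canalicular sterol exporter, were at -0.86 and -1.03 and at -0.75 and -0.81, and Abcg2, a canalicular exporter of sulfated compounds, was at -0.75 and -0.60. These 3 were named after their values were seen.

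Among 9 further organic ion uptake genes past the filter, of 18 listed, the median log2 ratios were -0.39 and -0.65. Both arrays after ethylbenzene were below both after PBS for 5 of them and above for 2. Of all genes 31.1% were below and 22.3% above, and of the most abundant 40.6% and 24.9%. The monocarboxylate transporter gene Slc16a1 was at 1.41 and 1.91, although the mean of its 2 probe sets was short of 2-fold at 0.87 and 0.80. The carnitine transporter gene Slc22a5 was at 1.03 and 1.23, the first being 0.98 on the deposited scale, and Slc22a23 was at -1.12 and -1.05. Slc22a7, an organic anion transporter of the sinusoidal membrane that was named after its values were seen, was at -0.87 and -0.66.

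Of 21 regulators and scaffolds past the filter, 11 had both arrays after ethylbenzene below both after PBS and 3 above. Their medians were -0.27 and -0.40. The shares were again 31.1% and 22.3% of all genes, and 40.6% and 24.9% of the most abundant. Nr1h4, the gene of the bile acid receptor FXR, had a signal of 3127 on P+E, against 6078 on P+P, and of 2910 on E+E, against 5639 on E+P, or log2 ratios of -0.90 and -0.92. Nr0b2, which encodes the repressor SHP and is a classical FXR target, was at -0.64 and -1.10. The lower signal of Nr1h4 and Nr0b2 thus stood beside a higher signal of Abcb11 on the same arrays. Nr1i3, the gene of the xenobiotic receptor CAR, was at -0.85 and -1.45, and Nr1i2, that of the related receptor PXR, at 1.45 and 0.04. Over the mean of its 2 probe sets Nr1i2 was at 0.91 and -0.18. Its signal was 1676 on P+E, against 596 on P+P, and 1187 on E+E, against 1180 on E+P, so that P+P was the lowest array. Hnf4a was at -0.10 and 0.20, and over the mean of its 4 probe sets at 0.35 and -0.10. Ppara, the gene of the fatty acid receptor PPARα, was at least 2-fold lower in both (-1.14 and -1.54), and Cebpb, an inflammation-responsive transcription factor gene, was at least 2-fold higher in both (1.11 and 1.30). Rdx, which encodes radixin, the linker that holds canalicular transporters to actin, was at -0.64 and -0.82, and was named after its values were seen. Gpbar1 was not analysed here.

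**Figure D4:**
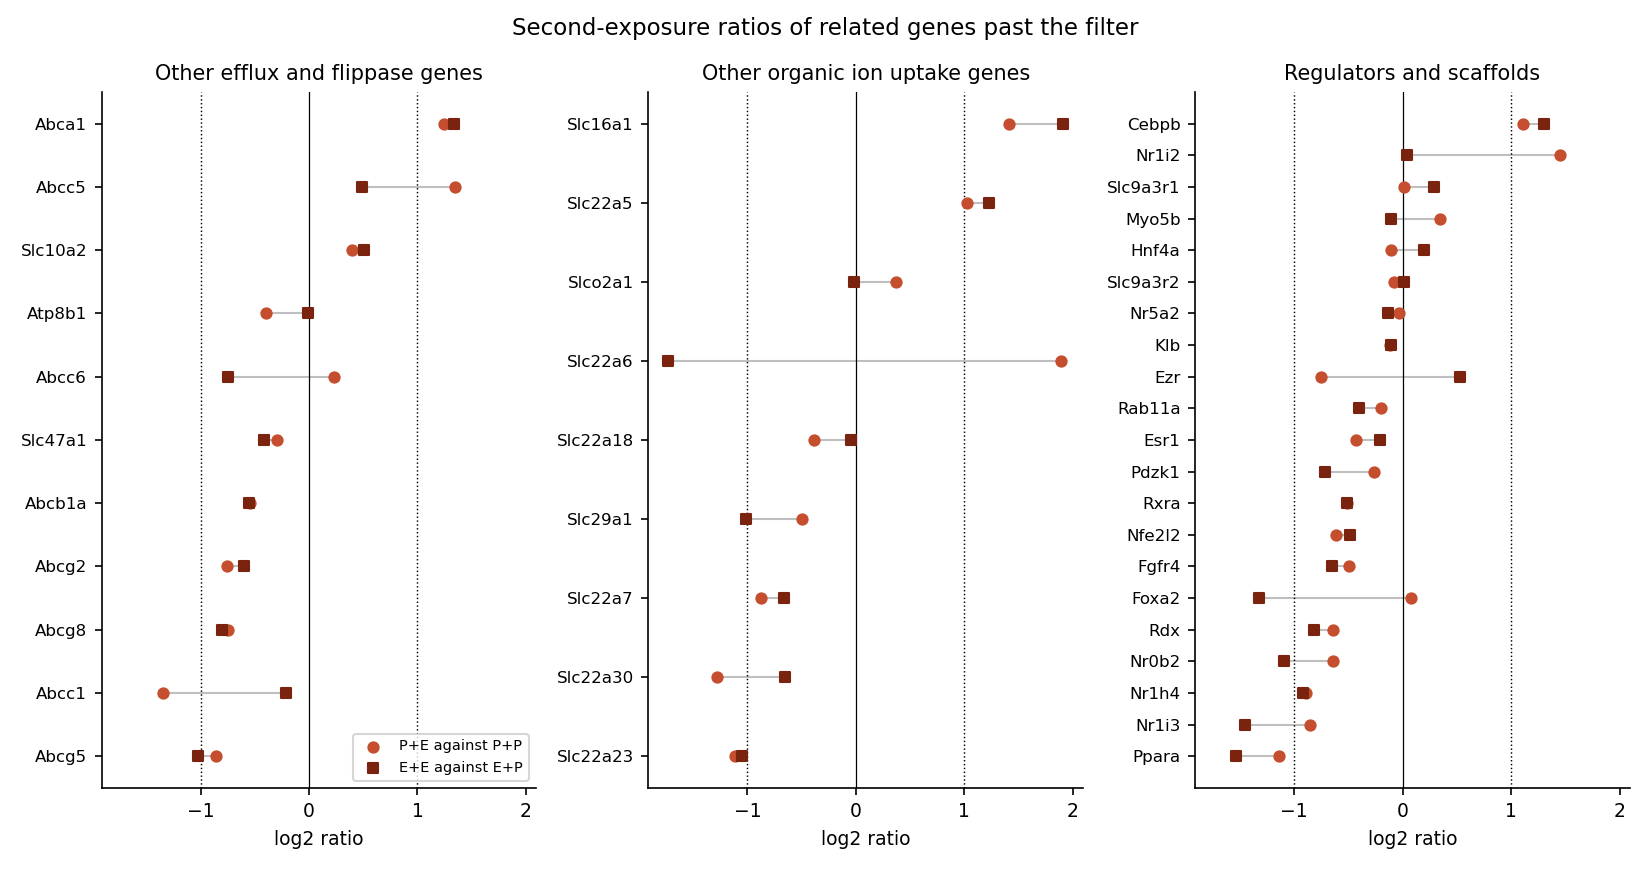
Log2 ratios (horizontal axes) of related genes past the filter for P+E against P+P (circles) and E+E against E+P (squares), each row being 1 gene and dotted lines marking 2-fold. Nr1h4 lies near -0.9 in both ratios, and Abca1, Slc16a1, Slc22a5 and Cebpb lie above 1 in both.

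Larger ratios stood among genes of bile acid synthesis. Of 12 genes of synthesis and conjugation, all past the filter, 6 had both arrays after ethylbenzene above both after PBS and 4 below. Their medians were 0.12 and -0.0077. The shares above and below were 22.3% and 31.1% of all genes, and 24.9% and 40.6% of the most abundant. Cyp7a1 (-5.37 and -4.93) and Cyp7b1 (-1.91 and -1.46), which hydroxylate cholesterol and oxysterols, were lower by 2-fold or more in both. Baat, which conjugates bile acids with taurine or glycine and was named after its values were seen, was at 0.58 and 0.55. Cyp8b1, the sterol hydroxylase of cholic acid synthesis, also named after its values were seen, was at 1.02 and 0.22, the first being 0.98 on the deposited scale. The mean of the 3 probe sets of Cyp7b1 was at -1.36 and -0.61.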

How the data were processed

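Liver RNA of 4 groups of mice, pooled within each group per the labels, was measured on 4 Affymetrix arrays, 1 per group. The deposited values were intensities, linear and with none missing. The software that summarised the probes was not given in the sources used here, but the values showed a scaling by the authors, since the mean after trimming 2% of probe sets at either end was 500.004 on each array. As the medians of the log2 signals lay 0.24 apart (limit 0.1), intensities were quantile-normalized and expressed as log2(signal + 43.2), the pseudocount being the 25th percentile of all signals. This scale understates ratios of dim genes.

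Gene symbols came from the platform annotation and were updated by Entrez identifier in a RefSeq gene table (GRCm38.p6). Of the probe sets, 34945 had 1 symbol, 932 several and 9160 none listed. Where a gene had several probe sets, the one with the highest mean log2 signal stood for it, and the gene passed the filter if this mean was no lower than the median over the array, equal to a signal of 120.05. No p-value or error was given, since each group had 1 array, and at least 2-fold was a rule of size that describes 2 arrays. Comparisons that share an array share its error. The steps were tested on simulated arrays. All transporter genes, listed genes past 2-fold with equal sign in both second-exposure ratios and 5 nuclear receptor genes were named by rule, and others only where stated. Some listed genes are not reported here. The members, lists and alternatives were chosen with earlier results of these data known. Python 3.11.15, numpy 2.4.6 and pandas 2.3.3 were used.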

Additional observations from a re-analysis of the deposited data

Results flagged for a closer look

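Abcc2 was the only transporter gene whose second-exposure log2 ratios had opposite signs, at 0.29 for P+E against P+P and -0.27 for E+E against E+P. Both were less than 2-fold, each rests on 1 array per group, and the difference between them was not tested.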

How the results depend on the processing

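In P+E against P+P, 9 of the 10 transporter genes kept their sign under the alternatives of normalization, pseudocount, probe set choice and filter. The exception was Abcc3 (-0.04 at a common 75th percentile). In E+E against E+P 9 of 10 did so, the exception being Slco1b2 (0.0025 with the mean over its probe sets). Changes of pseudocount or filter could not turn a sign, however. Probe set choice could do so only for genes with several probe sets. For E+P against P+P, 7 of 10 kept their sign, the exceptions being Slc10a1, Abcb11 and Slco2b1, and for E+E against P+E 9 of 10, the exception being Slco1b2 (0.63 with the mean over its probe sets). The count of genes at least 2-fold apart was 0 for P+E against P+P and became 1 with the mean over the probe sets of a gene, when Slco2b1 reached 1.0. It was 1 for E+E against E+P, Abcc4, and became 0 with the median signal as the pseudocount, where Abcc4 was at 0.86 and its difference between the second-exposure ratios at 0.84, and 0 with a 75th percentile filter, which Abcc4 did not pass. Without the P+P array, a comparison added after the data were seen, the count for P+E was 0. With probe sets that can match several transcripts left out, Abcc2 had none. No paired analysis was possible because each group had 1 array. Abcc4 and the dim probe sets of Slco1b2 and Slco2b1 lay nearest to the filter level, where signal over background limits a ratio most.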

Other observations

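The genes nearest to Slco1b2 and Slco1a1 in pattern were sought among all genes past the filter by the Euclidean distance of their 3 log2 ratios to P+P, which rests on 4 arrays. Slco1b2, at -0.84 on E+E, -0.81 on P+E and -0.22 on E+P, was nearest to Dctpp1 (distance 0.033), Cpsf6 (0.046) and Slco1a1 (0.054). Slco1a1, at -0.87, -0.77 and -0.25, was nearest to Derl2 (0.050), Usp18 (0.051) and Slco1b2 (0.054). With the probe sets used, each of the 2 transporter genes was thus among the 3 genes nearest to the other, although 76 and 73 genes lay within 0.2 of Slco1b2 and Slco1a1. Other bright probe sets of Slco1b2 had log2 ratios of 0.11 and 0.67 for E+P against P+P, where Slco1a1 had -0.25.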
